A study of Populus deltoides with 38 samples.

Results

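The cut sites described here are transcript ends in poplar leaves that the degradome tables pair with predicted candidate small RNAs, those whose names begin with PC-. A site was counted once for each transcript and cleavage position, whatever the number of reads behind it. This gave 924 sites of 3286 in both tables (28.1%), on 908 transcripts of 258 genes, and 2 of the 924 sites lie on transcripts without a gene identifier. They were paired with 107 candidate names that stand for 105 sequences. Small RNAs with miRBase-type names have 2378 sites, of which 16 are also listed for a candidate.

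Rooted cuttings of Populus deltoides were given sulfate at 0 (low), 100 (middle) or 1500 (high) µM for 12 days. Treatment went on for another 21 days at the same sulfate with 50 µM CdCl2 (+Cd) or without Cd (-Cd). Leaves of each of the 6 groups gave 3 mRNA and 3 small RNA libraries, whose names give the Cd treatment, the sulfate level (L, M or H) and a replicate number. Each degradome library came from 9 leaf RNAs mixed in equal amounts, 1 pool with Cd and 1 without, so the sulfate levels are mixed within a pool, and no pool has a replicate. The labels do not say which plants a library came from, so p-values measure the spread between these samples only, which may be technical.

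In plants, a small RNA loaded into an Argonaute protein pairs with a transcript and guides its cleavage. The cut falls opposite base 10 of the small RNA, counted from its 5′ end, and leaves a downstream fragment with a 5′ monophosphate. Degradome sequencing captures such fragments, so a pile of read starts opposite that base is the usual sign of guided cleavage, while turnover of RNA by other routes also leaves 5′ monophosphates. A predicted candidate is a small RNA with no miRBase entry whose surrounding genome sequence can fold into a hairpin.

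The sequences below are the candidates behind the sites with at least 10 raw reads in a degradome pool and those of lowest alignment score. Also given are the candidates behind the sites with most reads in 1 pool alone, and the candidates whose own level changed. The candidate with the most small RNA reads is included, as is 1 miRBase-type sequence that shares a site with a candidate. Each is written 5′ to 3′ as the tables give it, with T for U, and the capitals mark the seed, bases 2 to 8.
PC-3p-13609920_1: cTTATTAAttcactcctca
PC-5p-1069324_4: cCTTTGTTgccttttcttct
PC-3p-743459_6: tCTCTTATacgtttttgtctg
ptc-miR6462e_L+2R-1: tCTCTTATgcgtttttgtctc
PC-3p-12611969_1: cTAAACTActgtatttta
PC-3p-7303029_1: gGAAGAAGacggcagggagaagggt
PC-3p-11509_999: tGGCAGCCtcttctcttgttt
PC-5p-488121_9: tTTCTGCCattatcaatttta
PC-5p-290444_17: tTTCTGCCattatcaattttg
PC-3p-1442067_3: gAATTCCAtctcacattt
PC-3p-2499602_2: tATTCATCatcatgttgagca
PC-3p-627_13627: tGTTTTGGtaatgcaagtgtt
PC-5p-6006_1756: tCTCTTGCctactcctcccattcc
PC-5p-4595_2171: tGGTGTTGttggatttgtcttgtt
PC-5p-54831_178: cCTGGCTTcctcttgctctcc
PC-3p-136834_50: aATGAGAAtactcctgcaaaagat

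The candidates shared few seeds. Of the 105 sequences, 2 had a seed in common: PC-5p-488121_9 and PC-5p-290444_17 differ by A21G, counted from the 5′ end, with the base of the first-named sequence first. PC-3p-743459_6 has the seed of ptc-miR6462e_L+2R-1 and differs from it by A9G and G21C. In all, 4 of 107 candidate names shared a seed with a miRBase-type name, and 5 lay within 4 edits of one. Of the 107, 66 were 21 bases long, the length of most plant microRNAs, 10 were 24 bases and 11 were 18 bases, and 69 began with T.

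Most candidates had few reads in the small RNA libraries. The small RNA table listed 105 of the 107 names, and the median total over all 18 libraries was 16 reads. For 43 names the total was at most 10 reads, and these 43 were paired with 506 of the 924 sites (54.8%). They also held 71.0% of the candidates' cut reads in the +Cd pool and 71.9% in the -Cd pool, after each read was divided over the transcripts it matched. Part of these reads is also listed for miRBase-type names, as at the sites of PC-3p-743459_6, which had 8 small RNA reads. In all, 6 names exceeded 1000 reads, led by PC-3p-627_13627 with 25250, and 17 had reads in every library. The sequence of PC-3p-627_13627 lies 4 edits from ptc-MIR7813-p3_1ss1CT. On Potri.006G250100 the sites of these 2 names lie 2 bases apart, each with 3 raw reads in the +Cd pool and 1 in the -Cd pool. PC-3p-1442067_3, with 7 small RNA reads in all, was paired with 85 sites in 20 genes, the highest number of genes per candidate.

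The candidates' sites carried few degradome reads. In the +Cd pool 575 sites were listed, of which 364 had 1 raw read (63.3%), and in the -Cd pool 562 sites, of which 400 had 1 read (71.2%). The highest site in the +Cd pool had 90 raw reads, in Potri.001G400100, and the highest in the -Cd pool had 75, in Potri.001G077600. The site in Potri.001G077600 is also listed for ptc-miR6462e_L+2R-1. The highest counts at miRBase-type sites were 6445 in the +Cd pool and 6061 in the -Cd pool. Candidates held 2.98% of the divided reads in the +Cd pool and 2.48% in the -Cd pool. Names of the miRBase type held 97.3% and 98.1%, and these shares overlap because 16 sites are listed under both kinds of name. Because a read was divided over as many as 10 transcripts, with a median of 6, many sites are copies of one read pile on several transcripts. With transcripts collapsed, the 924 sites came to 268 pairs of a candidate and a gene, and 20 pairings had 5 or more raw reads in a pool.

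The authors' categories put few of the sites at the peak of a transcript. The category runs from 0 to 4, and category 4 coincided with exactly 1 raw read in all 5250 entries of both tables. Category 0, the class of the clearest peaks, held 3 candidate sites in each pool, 0.522% of those listed in the +Cd pool and 0.534% in the -Cd pool. For miRBase-type names it held 374 sites (23.1%) in the +Cd pool and 364 (20.7%) in the -Cd pool. Category 1 held 7 candidate sites in the +Cd pool and 2 in the -Cd pool.

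The sites also aligned less closely to their small RNAs. The authors' alignment score ran from 0 to 4, and lower is closer. It was 4 for 621 candidate sites (67.2%), against 46.3% of miRBase-type sites, and at most 2 for 15 candidate sites (1.62%), against 20.5%. Of the 935 candidate entries, 451 aligned without a length difference, and in all 451 the cut lay opposite base 10. Over both kinds of name this held for 3521 of 3522 such entries, so the position does not set candidates apart. Counted along the aligned stretch of the transcript, the cut lay 9 bases in for 147 entries and 11 bases in for 24. Each of these aligned with a length difference, where this count need not equal the small RNA base opposite the cut. Cuts further off were not listed for any small RNA, so the position is no separate sign of guided cleavage here.

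Presence in both pools followed the number of reads. Of the 924 sites, 213 were listed in both pools (23.1%), 362 in the +Cd pool alone and 349 in the -Cd pool alone. Among miRBase-type sites, 1000 (42.1%) were in both. Where the pool with more reads had 1 read, 9.02% of 632 candidate sites were in both pools, against 13.8% of 1219 miRBase-type sites. With 2 to 4 reads the shares were 45.2% of 228 and 52.5% of 634 sites, and with 5 to 9 reads 65.6% of 32 candidate sites and 85.4% of miRBase-type sites. With 10 or more reads, all 32 candidate and all 347 miRBase-type sites were in both pools. A difference in listing between pools was not detectable at this depth for sites of 1 read, and a site missing from a table is called not listed here.

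**Figure D1:**
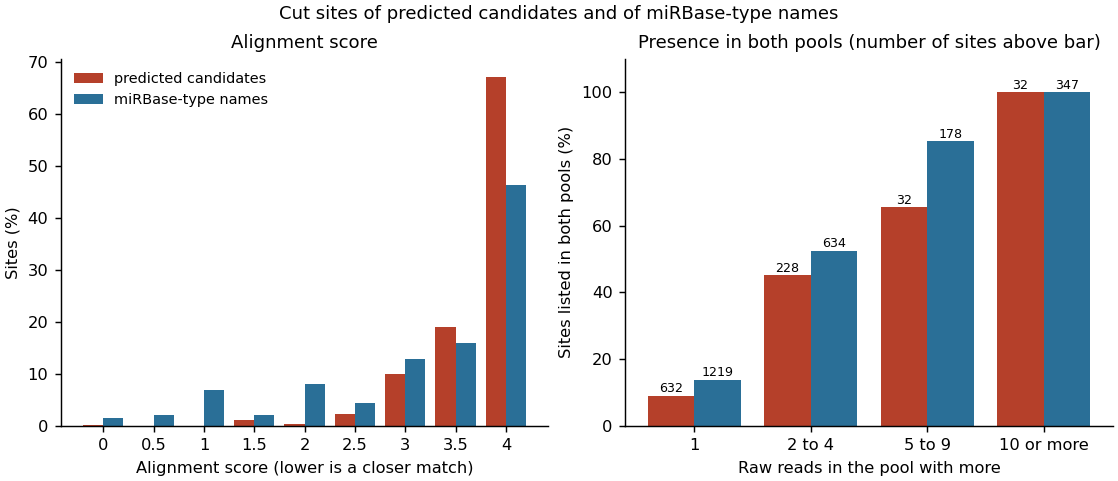
Share of sites in percent by alignment score (left) and share listed in both pools by the raw reads of the pool with more (right, number of sites above each bar), for predicted candidates and miRBase-type names. Score 4 holds 67.2% of candidate and 46.3% of miRBase-type sites, and both series reach 100% at 10 or more reads.

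The 32 sites with at least 10 raw reads in a pool were compared between pools after scaling for depth, with a change of at least 2-fold counted. There is 1 library per pool, so the ratios have no replicate check, and their intervals cover counting error only. Of these 32 sites, 17 were higher in the +Cd pool (53.1%) and 5 lower (15.6%). Over all sites with that many reads, 9.76% of 369 were higher and 28.7% lower, and over the 347 miRBase-type sites 5.48% were higher and 30.5% lower. The 17 higher sites lay in only 3 genes, since the same reads were listed on up to 10 transcripts, and the 5 lower sites lay in 3 genes that share reads.

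Potri.001G400100 (chromosome 1, 42186604 to 42187952) had the most reads of all candidate sites. Its 6 sites, paired with PC-3p-13609920_1 at a score of 3.5, had 90 raw reads in the +Cd pool (95% Poisson interval 72.4 to 111) and 39 in the -Cd pool (27.7 to 53.3). The scaled ratio of +Cd to -Cd was 2.65 (1.80 to 3.96), with category 2 in both pools. The candidate itself had 2 reads in 18 small RNA libraries.

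Potri.013G055800 (chromosome 13, 4170038 to 4173188) had 54 raw reads in the +Cd pool (40.6 to 70.5) and 21 in the -Cd pool (12.999 to 32.1) at its site for PC-5p-1069324_4. The scaled ratio was 2.95 (1.75 to 5.14), at an alignment score of 4, and the cut lay 9 bases in along the aligned stretch of the transcript. PC-5p-1069324_4 had 10 small RNA reads in all and was paired with 44 sites in 11 genes. Potri.008G186500 (chromosome 8, 12825362 to 12828784) accounted for 10 of the 17 higher sites from one pile of 11 reads in the +Cd pool and 5 in the -Cd pool. Its ratio of 2.52 had an interval of 0.81 to 9.27, which includes no change. PC-3p-12611969_1, its candidate, had 2 small RNA reads.

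**Figure D2:**
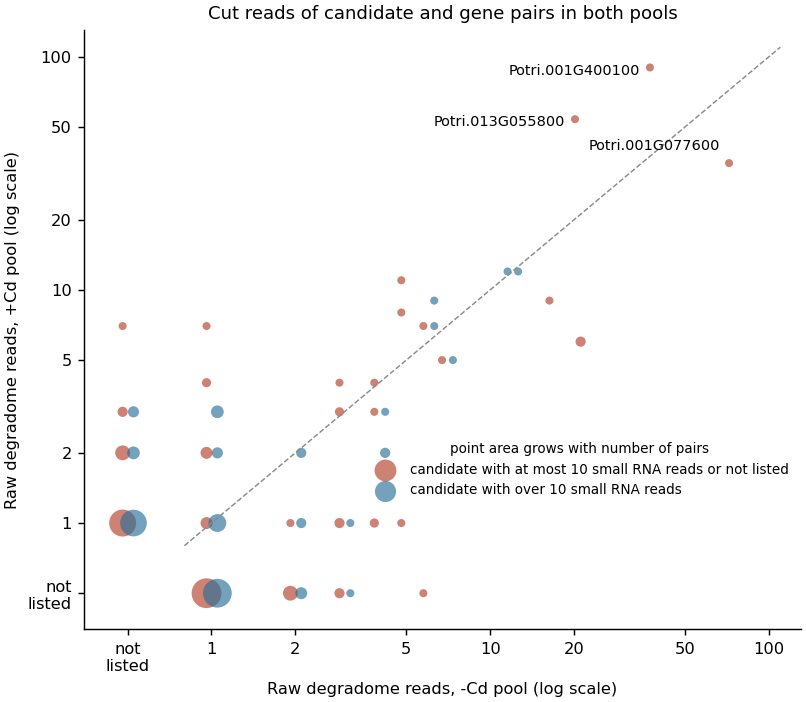
Raw degradome reads of each candidate and gene pair in the +Cd pool (vertical) and the -Cd pool (horizontal), on log axes with unlisted sites drawn at the margin, point area growing with the number of pairs and red marking candidates with at most 10 small RNA reads or none listed, blue those with more. Most pairs have 1 read in 1 pool, and the 3 labelled genes have 90, 54 and 35 reads in the +Cd pool against 39, 21 and 75 in the -Cd pool.

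The sites lower in the +Cd pool are shared with miR6462. In Potri.003G152000, Potri.003G152200 and Potri.003G152300, which lie close together on chromosome 3, the site of PC-3p-743459_6 had 6 raw reads in the +Cd pool and 22 in the -Cd pool, with a scaled ratio of 0.31 (0.10 to 0.80). The same reads were listed for all 3 genes, so they are 1 measurement. In Potri.001G077600 (chromosome 1, 6153676 to 6155184) the matching site had 35 reads in the +Cd pool and 75 in the -Cd pool, with a ratio of 0.54 (0.35 to 0.81), just short of 2-fold. At every one of these sites ptc-miR6462e_L+2R-1 is listed for the same reads with a score of 0.5, against 3.5 for PC-3p-743459_6. The reads cannot be assigned to one or the other small RNA. Their levels differ too, in CPM (counts scaled to each library's adjusted total over the sequences tested). The candidate, with 8 reads over the 18 small RNA libraries, ranged from 0 to 0.90 CPM in the +Cd libraries and from 0 to 0.56 in the -Cd libraries. The other, ptc-miR6462e_L+2R-1, ranged from 3.33 to 21.8 CPM in the +Cd libraries and from 10.6 to 18.2 CPM in the -Cd libraries.

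These transcripts carried several cuts in a short stretch. On Potri.001G077600, miR6462 sites lay 11 and 3 bases upstream of the PC-3p-743459_6 site, with 47 and 7 raw reads in the +Cd pool and 107 and 38 in the -Cd pool. PC-3p-11509_999 was paired with a site 53 bases downstream, and ptc-miR6457b with one 59 bases downstream. The same 5 positions at the same spacing were cut on the chromosome 3 genes and on Potri.001G078100. On Potri.001G078100 the position of the PC-3p-743459_6 site was listed for ptc-miR6462e_L+2R-1 and not for the candidate. The ptc-MIR6462a-p3_1ss17GA site of that gene had 518 raw reads in the +Cd pool and 1409 in the -Cd pool. The PC-3p-11509_999 site had a score of 1.5 on Potri.001G077600, with 7 reads in the +Cd pool and 6 in the -Cd pool, a ratio of 1.34 (0.39 to 4.82). The miR6457b site next to it had 24 reads in the +Cd pool and 30 in the -Cd pool.

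**Figure D3:**
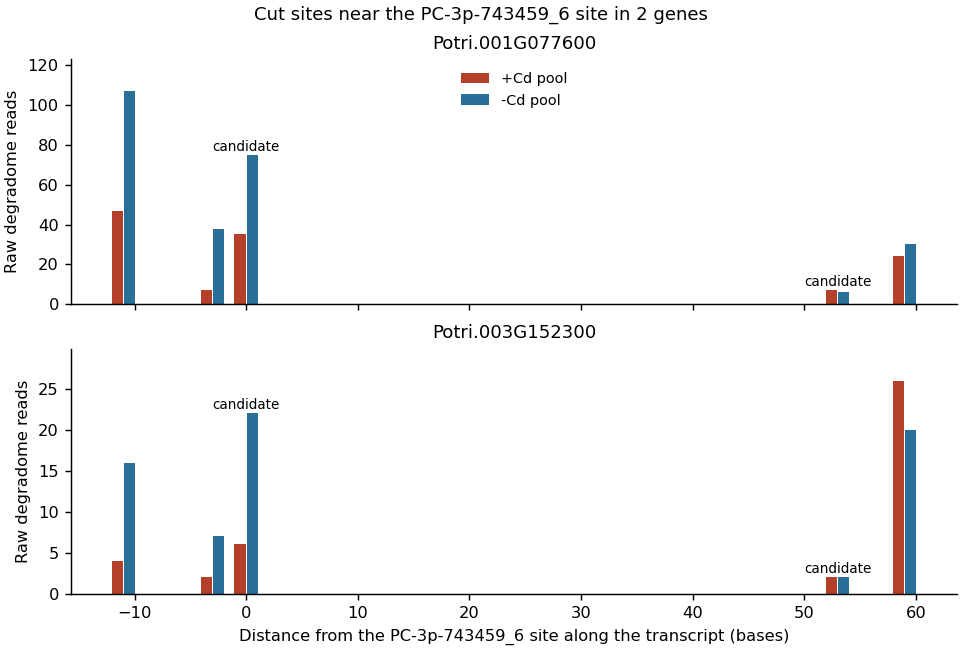
Raw degradome reads (vertical) at each cut position by distance in bases from the PC-3p-743459_6 site along 1 transcript of Potri.001G077600 (top) and Potri.003G152300 (bottom), +Cd bars left of -Cd bars. The 3 positions at or upstream of 0 have more reads in the -Cd pool in both genes, while the candidate site 53 bases downstream has 7 against 6 and 2 against 2.

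PC-3p-11509_999 combined a high small RNA level with several cut genes. It had 1915.5 reads, a fractional total because reads were split over hairpins, occurred in all 18 libraries, and was paired with 24 sites in 10 genes. Besides the sites above, it had 12 reads in each pool at Potri.001G078100 (chromosome 1, 6172009 to 6174681; ratio 1.06, 0.44 to 2.58) and 12 in the +Cd pool against 11 in the -Cd pool at Potri.015G135100 (1.25, 0.51 to 3.13), both at a score of 3.5. The tables divide these reads over 2 transcripts, and the divided reads of the 2 genes sum to 6 each in the +Cd pool and to 6.5 and 5.5 in the -Cd pool, so the genes share reads and are not separate measurements. On both genes a site of ptc-miR6457b lies 6 bases downstream, at a score of 4, with 484 reads in the +Cd pool and 1023 in the -Cd pool in Potri.001G078100, and 474 and 1010 in Potri.015G135100. Potri.015G135100 was listed at 0 FPKM in every mRNA library.

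The lowest scores belonged to few genes. The single score of 0 was the site of PC-5p-488121_9 in Potri.019G014400 (chromosome 19, 1586034 to 1588063), where PC-5p-290444_17, of the same seed, scored 0.5. That site had 1 read in the +Cd pool and 2 in the -Cd pool. A hairpin listed for PC-5p-488121_9 (chromosome 19, 1587916 to 1588076, minus strand) shares 148 bases with this locus if both tables use the same genome build, which is not given in the sources used here. PC-3p-11509_999 scored 1.5 in Potri.001G077600, Potri.003G152200 and Potri.003G152300, and the remaining 1.5 was that of PC-5p-1069324_4 in Potri.009G131300, with 1 read in the +Cd pool alone.

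The category 0 sites were all in Potri.010G114900 (chromosome 10, 13313421 to 13316375), on 3 transcripts that shared the same reads. They had 9 raw reads in the +Cd pool (4.12 to 17.1) and 17 in the -Cd pool (9.90 to 27.2), a ratio of 0.61 (0.24 to 1.44). The score was 4, and PC-3p-7303029_1 was seen as 1 read in 1 small RNA library. Category 1 sites had 3 reads or fewer. In the +Cd pool these were Potri.012G063800 with 3 reads, and Potri.004G066500 and Potri.004G066600 with 2 shared reads, none listed in the -Cd pool. In the -Cd pool they were Potri.011G050600 and Potri.016G097900 with 2 reads each, not listed in the +Cd pool.

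Among sites listed in 1 pool alone, Potri.016G017100 had the most reads in the +Cd pool, 7 (2.81 to 14.4), for PC-3p-1442067_3. Several pairings were tied at 3 reads there, among them Potri.001G087500 with PC-5p-1069324_4. In the -Cd pool the most were 6 reads in Potri.019G042600, for PC-3p-2499602_2. The 3 pairings named had a score of 4.

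The mRNA level of the cut genes was then compared over the 6 groups. FPKM, fragments scaled to transcript length and to mapped fragments, were deposited per locus, and the 258 genes fell on 255 loci, 11 of which join more than 1 gene. The median of mean FPKM was 19.1 for the cut genes, against 11.7 for genes cut by miRBase-type names and 2.47 over all loci. Among loci with a mean of at least 1 FPKM, the medians were 20.4, 14.1 and 10.2. A gene is listed only where a transcript fragment was read, so the list leans to expressed genes by selection. A mean of at least 1 FPKM was reached by 241 of the 255 loci, which were tested with limma on log2(FPKM + 1) among 23166 loci, and 6 were listed at 0 throughout. In bulk leaf RNA, fewer cells of a type and less RNA per cell cannot be told apart. Loci cut in both pools had a higher median level (39.5 FPKM, 62 loci) than those cut in the +Cd pool alone (15.6, 83 loci) or the -Cd pool alone (18.9, 96 loci).

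With Cd, averaged over sulfate, 26 of the 241 tested loci rose and 55 fell (limma, Benjamini-Hochberg adjusted p under 0.05). That is 33.6% of the members, against 28.1% of all loci tested, of which 11.9% rose and 16.2% fell. For genes cut by miRBase-type names the share was 35.4%, so the shares lie close together. Under quantile normalization 47 members rose and 41 fell (53.4% of calls higher, 32.1% before). Over all loci 4133 rose and 3046 fell (57.6% of calls higher, 42.3% before), so the split of directions moved the same way. The members' median change was -0.03 on the log2 scale, and -0.00 over all loci.

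The mRNA changes were also counted by the pool in which a gene was cut. Of the 83 loci cut in the +Cd pool alone, 10 rose and 18 fell with Cd (limma), at a median of -0.05. Of the 96 cut in the -Cd pool alone, 12 rose and 20 fell, at a median of 0.04. Of the 62 cut in both, 4 rose and 17 fell, at a median of -0.04. Over all loci 11.9% rose and 16.2% fell. The direction of calls turned under quantile normalization in the members and over all loci, as given above. These shares were not tested against each other, and the counts by pool were not recomputed under that scaling.

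Potri.001G397200 (chromosome 1, 41808762 to 41810069) had the smallest p. It stood at 26.2, 30.3 and 22.9 FPKM in +CdL libraries, against 45.2, 59.97 and 61.2 in -CdL. At middle sulfate it had 35.0, 29.8 and 33.3 FPKM in +CdM, against 147.0, 181.1 and 189.6 in -CdM. At high sulfate it had 26.9, 25.9 and 16.4 FPKM in +CdH, against 108.7, 109.3 and 108.8 in -CdH. The groups did not overlap at any sulfate level, and all 9 libraries with Cd were below the matching mean without Cd. The gene fell by 1.87 ± 0.10 log2 units (SE; limma, adjusted p = 1.4e-07). Its cut site, for PC-3p-16730949_1, had 1 raw read in the +Cd pool and 4 in the -Cd pool.

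Potri.011G129100 (chromosome 11, 15420160 to 15421131) also fell, by 1.95 ± 0.15 (limma, adjusted p = 5.9e-07). It averaged 39.7 ± 7.2 FPKM in +CdL and 78.5 ± 19 in -CdL, 50.7 ± 13 in +CdM and 224.2 ± 50.0 in -CdM, and 23.3 ± 7.61 in +CdH and 160.8 ± 29.2 in -CdH (SD, n = 3), with no overlap at any level. At low sulfate alone the change, -0.95 ± 0.26, was not past the threshold (limma, adjusted p = 0.12). Its site for PC-3p-2952110_2 had 1 read in the +Cd pool and 5 in the -Cd pool (scaled ratio 0.23, 0.0049 to 2.05), an interval that includes no change. The other loci of smallest p also fell: Potri.001G409500 by 2.21 ± 0.16, Potri.004G061500 by 0.96 ± 0.08, Potri.008G058100 by 0.94 ± 0.06 and Potri.002G094200 by 0.82 ± 0.08 (SE; limma, adjusted p from 1.4e-07 to 2.7e-06). Of these, Potri.002G094200 had 3 cut reads in the +Cd pool and 4 in the -Cd pool, and the others had no listing in the +Cd pool and 1 or 2 reads in the -Cd pool.

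The genes with the most cut reads changed little in mRNA with Cd. Potri.001G400100, whose cut reads were 2.65-fold higher in the +Cd pool, was the most abundant cut gene. It had 2309, 4483 and 3247 FPKM in +CdL, against 3900, 4057 and 4321 in -CdL. At middle sulfate it had 5485, 5573 and 7094 FPKM in +CdM, against 3294, 6491 and 6652 in -CdM, and at high sulfate 6088, 5174 and 8503 in +CdH, against 4374, 5342 and 6534 in -CdH. The groups overlapped at each level, and the change averaged 0.04 ± 0.17 log2 units (SE; limma, adjusted p = 0.87), a sign that turned when any of -CdM1, -CdH1, +CdL2 or +CdH3 was left out (-0.07 to -0.00). Potri.013G055800, 2.95-fold higher in cut reads, changed by 0.11 ± 0.15 (limma, adjusted p = 0.60). Potri.008G186500 changed by -0.19 ± 0.13 (limma, adjusted p = 0.29).

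Potri.001G077600, with fewer cut reads in the +Cd pool at the shared miR6462 site, rose slightly in mRNA, by 0.28 ± 0.09 (limma, adjusted p = 0.026), and was above the matching -Cd mean in 9 of 9 libraries. It averaged 224.5 ± 20.9 FPKM in +CdM and 174.1 ± 20.3 in -CdM (SD, n = 3). The call ended when any of -CdL2, -CdL3, -CdM1, +CdL3 or +CdH1 was left out (adjusted p of 0.051 to 0.056, limma). Potri.001G078100, also cut for PC-3p-11509_999, miR6462 and ptc-miR6457b, rose by 0.25 ± 0.07 (limma, adjusted p = 0.011) in 9 of 9 libraries. The locus that joins Potri.003G152200 and Potri.003G152300 changed by 0.25 ± 0.12 averaged over sulfate (limma, adjusted p = 0.14), and without -CdH3 by 0.35 ± 0.09, past the threshold (limma, adjusted p = 0.0125). At high sulfate it rose by 0.72 ± 0.21 (limma, adjusted p = 0.035), but not past the threshold without any of 4 single libraries (-CdH1, -CdH2, +CdH1 or +CdH2). Potri.003G152000, at 0.65 to 5.45 FPKM with Cd and 0.85 to 3.22 without, changed by 0.21 ± 0.24 (limma, adjusted p = 0.54).

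Of the genes with category 0 or 1 sites, Potri.012G063800 rose by 0.43 ± 0.09 (limma, adjusted p = 0.002), in 9 of 9 libraries, and the locus of Potri.004G066500 and Potri.004G066600 fell by 0.25 ± 0.06 log2 units (limma, adjusted p = 0.009), in 7 of 9. Potri.010G114900 changed by -0.19 ± 0.07 (limma, adjusted p = 0.053) and passed without -CdM2, -CdH1, +CdL2, +CdM1 or +CdH3. Potri.011G050600 (0.09 ± 0.07; limma, adjusted p = 0.37) and Potri.016G097900 (0.13 ± 0.09; adjusted p = 0.28) did not pass. Nor did Potri.019G014400, the score 0 gene, at -0.05 ± 0.10 (limma, adjusted p = 0.77). Of the genes cut in 1 pool alone, Potri.016G017100 changed by -0.06 ± 0.10 (adjusted p = 0.73, limma) and Potri.001G087500 by 0.07 ± 0.06 (adjusted p = 0.44). Potri.019G042600 changed by 0.25 ± 0.09 (limma, adjusted p = 0.050), at the threshold, and lost its call without any one of 13 libraries.

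**Figure D4:**
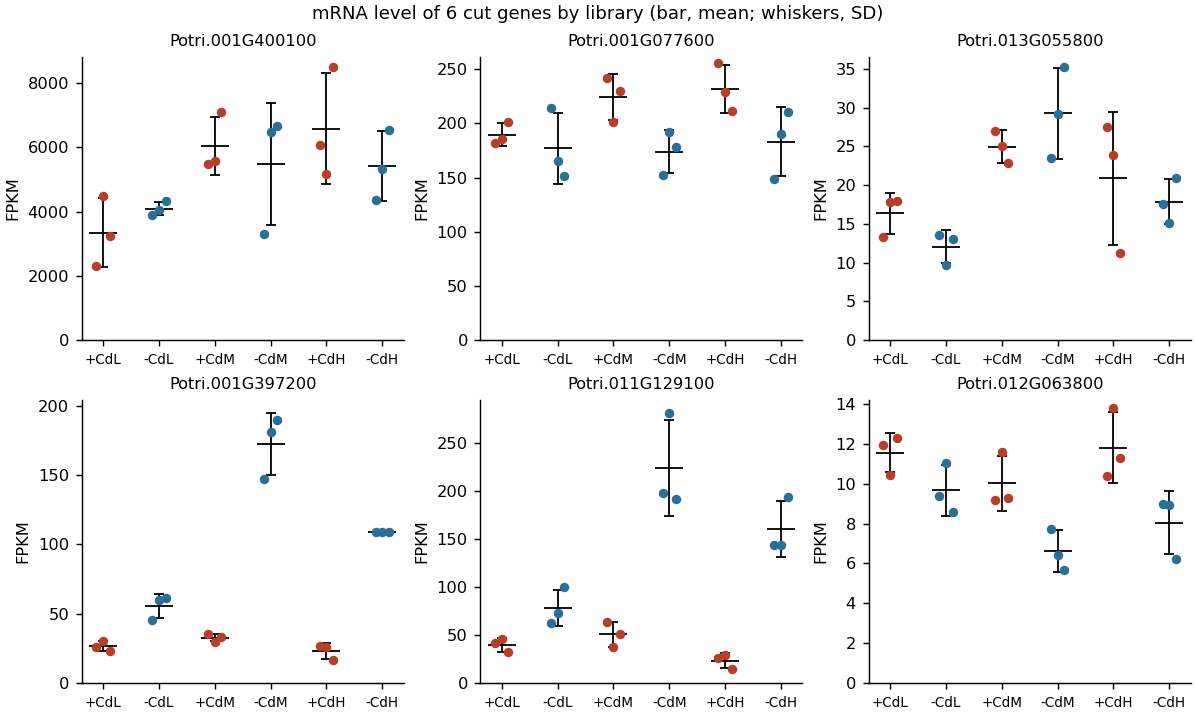
FPKM (vertical, from 0) of 6 cut genes in each library by group, +Cd left of -Cd at low (L), middle (M) and high (H) sulfate; points are libraries, bars means and whiskers SD (n = 3). Potri.001G397200 and Potri.011G129100 are lower in +Cd than in -Cd libraries at every level, while the groups of Potri.001G400100 overlap at each level.

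Within sulfate levels, Cd called few cut genes at low sulfate. At low sulfate 1 member rose and 4 fell (2.07% of 241, against 0.717% over all loci, 0.319% higher and 0.397% lower; limma). At middle sulfate 13 rose and 45 fell (24.1%, against 20.8% over all loci, 7.71% higher and 13.1% lower), and at high sulfate 13 rose and 28 fell (17%, against 13.4% over all loci, 4.82% higher and 8.59% lower). After quantile normalization 29 rose and 35 fell at middle sulfate, against 2958 and 2488 over all loci. At high sulfate 20 rose and 24 fell, against 1706 and 1691 over all loci. The member that rose at low sulfate, Potri.010G059900, had 24.4, 31.9 and 20.7 FPKM in +CdL, against 9.05, 12.0 and 7.502 in -CdL, a rise of 1.34 ± 0.20 (limma, adjusted p = 0.006). Potri.014G091800 fell there by 1.047 ± 0.21 log2 units (limma, adjusted p = 0.037) and Potri.005G195600 fell by 0.68 ± 0.15 (adjusted p = 0.048). The call ended without any one of 7 libraries for Potri.014G091800 and of 14 for Potri.005G195600. At middle sulfate Potri.002G079100 fell by 0.88 ± 0.08 log2 units (limma, adjusted p = 8.5e-06), and at high sulfate Potri.001G450000, cut for PC-3p-11509_999, fell by 2.27 ± 0.31 (limma, adjusted p = 2.4e-04).

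Low against middle sulfate, averaged over Cd, called 84 members, of which 39 rose and 45 fell (34.9% of 241, against 26.8% over all loci, 12.2% higher and 14.6% lower; limma). Under quantile normalization 56 rose and 35 fell, against 4237 and 2749 over all loci. Potri.018G123000 (chromosome 18, 14665694 to 14669278) fell most, by 2.51 ± 0.24 log2 units (limma, adjusted p = 1.4e-05). It had 17.2, 39.55 and 48.3 FPKM in +CdL, against 202.9, 160.6 and 154.1 in +CdM, and 34.2, 27.7 and 16.9 in -CdL, against 163.4, 189.6 and 140.4 in -CdM. The low and middle sulfate libraries did not overlap, with or without Cd. Its cut site, for PC-3p-2499602_2, had 1 read in the +Cd pool alone. Potri.001G400100 fell by 0.62 ± 0.20 at low sulfate (limma, adjusted p = 0.034), and lost its call without any one of 8 libraries. Potri.013G055800 fell by 0.90 ± 0.18 log2 units (limma, adjusted p = 0.002), and both were below the matching middle sulfate mean in 6 of 6 libraries.

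The next smallest p at low sulfate belonged to Potri.001G397200 (fell by 0.96 ± 0.12), Potri.005G003000 (fell by 0.50 ± 0.06), Potri.001G409500 (fell by 1.55 ± 0.19), Potri.012G023400 (fell by 0.71 ± 0.09) and Potri.002G094200 (fell by 0.68 ± 0.09), each in log2 units (SE; limma, adjusted p from 8.7e-05 to 1.9e-04). High against middle sulfate called 7 members, all lower (2.90% of 241, against 1.86% over all loci, 0.229% higher and 1.63% lower). It called 2 under quantile normalization (0.83%, against 0.79% over all loci). It called 0 without any of 7 single libraries (-CdM2, -CdM3, -CdH1, -CdH2, +CdM1, +CdM3 or +CdH3), where 46 members had an unadjusted p under 0.05 in the full set (limma). The 6 of smallest p were Potri.004G061500, Potri.009G137400, Potri.001G409500, Potri.001G397200, Potri.011G129100 and Potri.001G450000, with falls of 0.29 to 1.01 log2 units (limma, adjusted p from 0.030 to 0.048).

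The Cd effect differed between sulfate levels for 12 members (4.98% of 241, against 4.26% over all loci, 3.39% upward and 0.872% downward; limma interaction F test). In 11 of them the Cd effect at low sulfate lay above that at middle sulfate, and Potri.001G225800 was the other. Upward and downward refer to this difference, while the F test joins it with the difference between high and middle sulfate. For Potri.012G066900 the mean was 10.1 ± 0.71 FPKM in +CdL and 8.47 ± 0.69 in -CdL, but 5.46 ± 0.26 in +CdM and 8.88 ± 0.30 in -CdM (SD, n = 3). The difference in Cd effect between low and middle sulfate was 0.84 ± 0.11 (SE), with an adjusted p of 0.003 in the F test (limma). The cut site of the gene, for PC-5p-488121_9, had 1 read in the -Cd pool. Potri.001G409500 had the largest difference of the 12, 2.19 ± 0.39 (SE), with an adjusted p of 0.006 in the F test (limma). It had 9.64 ± 1.89 FPKM in +CdM and 82.5 ± 24.5 in -CdM (SD, n = 3).

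The small RNAs paired with the sites were mostly too rare to test. Of the 105 candidate sequences 103 were listed, and 17 were among the 368 sequences tested with edgeR, on counts that were not whole where reads had been split and were rounded. Library totals over the listed sequences ran from 498205 to 2934278 reads. With Cd, 2 of the 17 candidates fell and 0 rose, against 26.9% of all sequences tested, 13.3% higher and 13.6% lower. PC-5p-6006_1756 had 180, 154 and 142 CPM in +CdL, against 161, 182 and 313 in -CdL. At middle sulfate it had 119, 88.65 and 121 CPM in +CdM, against 202.2, 252.8 and 201.6 in -CdM, and at high sulfate 133, 78.45 and 58.5 in +CdH, against 149, 182 and 278 in -CdH. The groups overlapped at low sulfate and not at middle or high sulfate. It fell by 0.87 ± 0.18 log2 units (SE; edgeR, adjusted p = 0.002), in 9 of 9 libraries. Its 1 cut gene, Potri.010G231200, had 1 read in the +Cd pool alone, at a score of 4. A site of ptc-miR482a.1_L+5 and vvi-miR482 lies 2 bases upstream on the same transcripts, at a score of 2, with 1255 reads in the +Cd pool and 1502 in the -Cd pool. The candidate's sequence lies 2 edits from ptc-miR482a.1_L+5.

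PC-5p-4595_2171 fell by 0.72 ± 0.21 with Cd (edgeR, adjusted p = 0.015), in 8 of 9 libraries, and was higher at low than at middle sulfate by 0.99 ± 0.25 (edgeR, adjusted p = 0.007), in 6 of 6. At low sulfate its means were close, 105 CPM in +CdL and 109 in -CdL, and the libraries overlapped. The means were 39.1 in +CdM and 74.6 in -CdM, and 32.9 in +CdH and 77.8 in -CdH, without overlap. The low and middle sulfate libraries overlapped without Cd and not with Cd. PC-5p-4595_2171 was paired with 9 sites of 1 gene, Potri.006G138500, with 2 reads in the +Cd pool and 4 in the -Cd pool. Low against middle sulfate called 3 candidates, 2 higher and 1 lower, against 22.6% of all sequences tested, 14.1% higher and 8.42% lower. PC-5p-54831_178 fell by 1.32 ± 0.26 log2 units (edgeR, adjusted p = 5.4e-04), in 6 of 6 libraries. It had 4.996, 3.82 and 6.65 CPM in +CdL against 17.6, 16.3 and 23.3 in +CdM. Without Cd the gap was narrower, with 16.7, 6.17 and 10.5 in -CdL against 17.8, 17.5 and 22.4 in -CdM. Its sites in Potri.010G142400 and Potri.010G142500 are listed for ptc-MIR156k-p3 as well. PC-3p-136834_50 rose by 1.44 ± 0.40 (edgeR, adjusted p = 0.012) in 5 of 6 libraries, but not past the threshold without -CdL3 (1.19, adjusted p = 0.052). Its mean was 14.3 CPM in +CdL against 2.47 in +CdM, and 6.41 in -CdL against 4.60 in -CdM, where the libraries overlapped. PC-3p-11509_999 changed by -0.02 ± 0.14 with Cd (edgeR, adjusted p = 0.94).

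**Figure D5:**
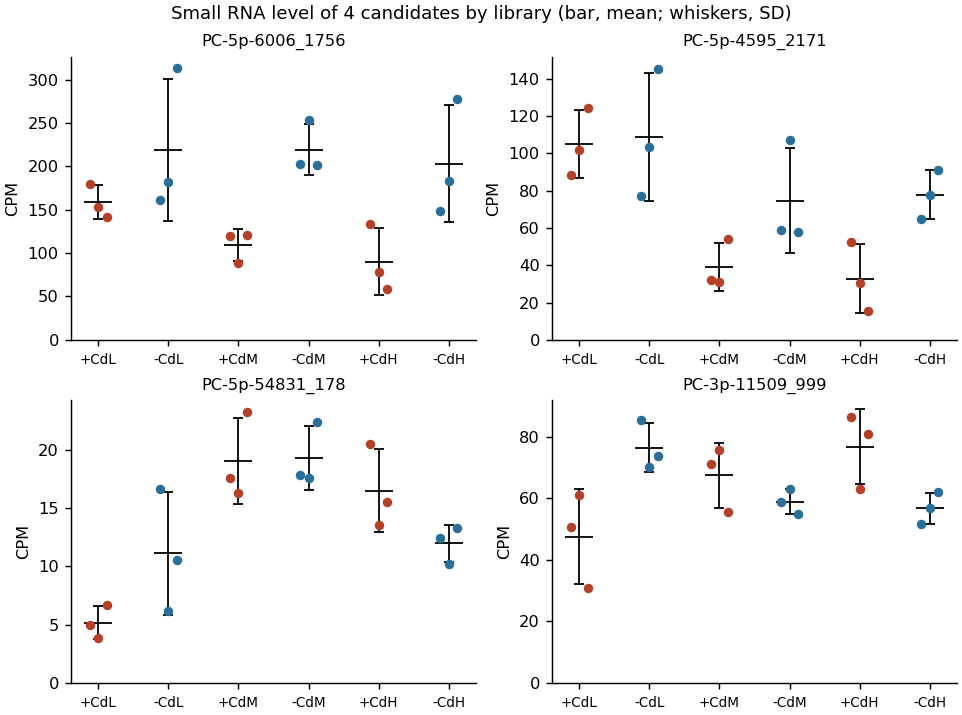
CPM (vertical, from 0) of 4 candidates in each library by group, +Cd left of -Cd at low (L), middle (M) and high (H) sulfate; points are libraries, bars means and whiskers SD (n = 3). PC-5p-6006_1756 is lower in every +CdM and +CdH library than in -CdM and -CdH libraries. PC-5p-54831_178 is at 3.82 to 6.65 CPM in +CdL and at 6.17 to 16.7 CPM in -CdL.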

How the data were processed

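Degradome, small RNA and mRNA tables were analysed as deposited. The authors deposited degradome raw read counts per cut site, estimated counts divided over the transcripts a read matched, a scaled signal (TPB, per the file headers) equal to the divided count times 102.823 in the +Cd pool and 89.636 in the -Cd pool, an alignment score and a category score. Sites were joined across pools by small RNA, transcript and position. Ratios use the scaled signal, and 95% intervals are exact Poisson or conditional binomial. The authors deposited FPKM values per locus and, for small RNAs, expected counts split over hairpins; TopHat2 2.1.1 was used, per the submitters' processing notes. No source used here names the genome build or the counting programs. FPKM keep no totals, so mRNA depth is unknown.

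limma 3.58.1 (R 4.3.3; trend, robust) was fitted to log2(FPKM + 1) of 23166 loci with a mean of at least 1, which understates changes of low loci. edgeR 4.0.16 (TMM, quasi-likelihood) was fitted to 368 small RNA sequences, summed over hairpins and rounded. Both used 6 group means and two-sided tests with Benjamini-Hochberg adjustment over all features, checked on simulated data. DESeq2 1.42.0 was an alternative for small RNAs. Named sites are those of category 0 or 1 (at most 12), the 10 with most reads, the 4 with most reads in each pool alone and the 5 of lowest score; named loci are theirs and the 6 of smallest adjusted p per contrast. The genes Potri.003G152000, Potri.003G152200, Potri.003G152300, Potri.008G186500, Potri.013G055800, Potri.001G078100, Potri.015G135100, Potri.009G131300, Potri.010G231200, Potri.006G138500, Potri.010G142400 and Potri.010G142500 were added after their values were seen. Members and lists were chosen with earlier results of these data known. Locus identifiers matched no gene names in the reference table, so no gene function is given and the leaf markers could not be checked.

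Replicate numbers were not used as pairs in the main fits. Within a sulfate level, deviations from group means of same-numbered +Cd and -Cd libraries correlated at -0.293 to 0.048 in mRNA. In small RNA the correlations were -0.164 to 0.08. Other pairings were not compared, so this check cannot show that the numbers pair no samples. Entries without values in the small RNA table (11) were left out.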

Additional observations from a re-analysis of the deposited data

Results flagged for a closer look

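For 12 cut genes the response to Cd differed between sulfate levels by the limma interaction test. The Cd effect at low sulfate minus that at middle sulfate, on the log2 scale, was 2.19 for Potri.001G409500, 1.44 for Potri.004G061500, 1.32 for Potri.001G397200 and 1.18 for Potri.011G129100, all of which were lower with Cd at middle sulfate. It was 0.90 for Potri.009G059000, 0.87 for Potri.002G079100, 0.84 for Potri.012G066900, 0.80 for Potri.005G107600, 0.63 for Potri.008G058100, 0.57 for Potri.005G171800 and 0.41 for Potri.018G076200. Potri.001G225800 went the other way, at -0.57, with 2.5 ± 0.505 FPKM in +CdL and 4.02 ± 0.45 in -CdL, 3.71 ± 0.34 in +CdM and 3.62 ± 0.95 in -CdM, and 4.01 ± 0.65 in +CdH and 2.25 ± 0.35 in -CdH (SD, n = 3).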

How the results depend on the processing

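With transcripts of a gene collapsed, 68 genes were cut in both pools, 91 in the +Cd pool alone and 99 in the -Cd pool alone, with 3 higher and 3 lower in the +Cd pool. With an alignment score of at most 3 the sites were 11 in both pools, 61 and 56, with 0 past 2-fold either way, and with categories 0 to 2 they were 74, 119 and 81. With at least 5 raw reads they were 53, 3 and 8. Without candidates of at most 10 reads, an alternative chosen after seeing the data, they were 109, 152 and 157, with 0 past 2-fold either way. A 4-fold limit left 0 and 0, unscaled reads gave 10 lower sites, and leaving out sites shared with miRBase-type names gave 0 lower.

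Members called (limma) at low sulfate with Cd were 3 with no filter and 3 with a replicate block. For high against middle sulfate they were 4 with no filter, 2 with quantile normalization and 2 with the block. The block gave 77 for Cd averaged over sulfate, 56 at middle and 39 at high sulfate, 81 for low against middle and 9 for the interaction. For small RNAs with Cd, 4 candidates were called with no filter and 4 with DESeq2.

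Leaving out 1 library gave 66 to 81 calls for Cd averaged over sulfate, 66 to 92 for low against middle and 7 to 13 for the interaction (7 without -CdL1 or -CdL2). It gave 1 to 6 for Cd at low sulfate (1 without -CdL2, -CdL3 or +CdL3; 2 without +CdL1; 3 without -CdL1, -CdM2 or +CdH1). It gave 36 to 61 at middle (36 without -CdM3) and 20 to 45 at high sulfate (25 without -CdH1, 27 without +CdH1, 20 without +CdH2). High against middle ran from 0 to 11 (4 without -CdL2, 11 without -CdM1). Small RNA calls ran from 2 to 4 in both contrasts (4 with Cd without -CdL2 or +CdL3). Potri.001G400100 ranged from -0.067 to 0.124 with Cd (-0.004, -0.035 and -0.023 among them), Potri.016G017100 from -0.126 to 0.019, and Potri.019G014400 from -0.095 to 0.023, with 0.009 under quantile normalization. The cause of these shifts was not tested.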
